A study of Homo sapiens with 8 samples.

Results

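Fork protection and ATR checkpoint genes were examined on all 8 arrays of the series. The set held 10 of the 22439 genes named on the array and was chosen by known role. The members were *TIMELESS*, *TIPIN*, *CLSPN* and *WDHD1*, *ATR*, *ATRIP* and *CHEK1*, and *RAD9A*, *RAD17* and *ETAA1*. Their probes were found through the transcript accession that the array files give. All 10 had a value on all 8 arrays, from 12 probes in all, with 2 probes each for *ATR* and *ATRIP* and 1 for each of the others.

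The replisome is the protein machine that unwinds and copies DNA at a replication fork. TIMELESS and TIPIN form a complex that travels with it and keeps the helicase and the polymerases together, CLSPN (claspin) binds beside them, and WDHD1 (AND-1) links the helicase to DNA polymerase alpha. When a fork stalls, single-stranded DNA recruits the kinase ATR through its partner ATRIP, and ATR, switched on through the RAD9A-containing clamp that RAD17 loads or through ETAA1, phosphorylates CHEK1 with CLSPN as the adaptor.

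The arrays were 2-color Agilent oligonucleotide arrays on 1 slide, with treated RNA in Cy5 and its own control RNA in Cy3 and no dye swap. EBC-1 and SK-MES-1, both lung squamous cell carcinoma lines, were transfected with *miR-150-3p* (1 array per line). In SBC-3, derived from small cell lung cancer, *DONSON*, which codes for a replisome factor, was silenced by 3 siRNAs (siDONSON-1, siDONSON-2 and siDONSON-3, 1 array each). A549, a lung adenocarcinoma line, carried *LOXL2*, a lysyl oxidase gene, edited with CRISPR/Cas9 (A549-GE1, A549-GE2 and A549-GE3, 1 array each). The control is called mock, and elsewhere in the labels untransfected, for the transfected lines, and simply control for A549. Transfection used Lipofectamine RNAiMAX, and the labels give no time after transfection. They do not say whether the A549 lines are clones or whether RNAs came from separate cultures. Nor do they say whether the 3 arrays of SBC-3 or of A549 share 1 control RNA. The p-values therefore measure a spread between arrays, which may be technical. In the group tests that spread is shared by all groups and includes the gap between EBC-1 and SK-MES-1.

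No array had a saturated spot, and 48.5% to 56.2% of spots were well above background in Cy5 and 41.1% to 46.4% in Cy3. The targeted genes followed their labels. *DONSON* had log2 ratios of −2.15, −1.79 and −2.11 with siDONSON-1, siDONSON-2 and siDONSON-3, and *LOXL2* had −2.49, −2.67 and −2.59 in A549-GE1, A549-GE2 and A549-GE3. Not every line carried the defining markers of its labelled type. Of 6 squamous markers, 1 was well above background in control EBC-1 and 3 in control SK-MES-1, and *KRT5*, *KRT6A* and *DSG3* were in neither. Of 6 neuroendocrine markers, 3 were above background on all arrays of control SBC-3. Of 4 adenocarcinoma markers, *KRT7* and *NAPSA* were above background on all arrays of control A549, while *NKX2-1* and *SFTPB* were on none. *KRT7* and *NAPSA* were also above background in control EBC-1 and SK-MES-1, and 2 of the squamous markers were on all arrays of control SBC-3.

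The promoters of the 5 members with the lowest ratios in EBC-1 are shown because E2F factors, which switch on genes for DNA synthesis, are known to act through short motifs at such promoters. RefSeq lists 16 promoters for the 10 members (build GRCh38.p14), all matched by symbol. Of each gene 1 start is shown, for *TIPIN* the start with an E2F motif. Each line gives 250 bases before the transcription start and the first 25 transcribed bases, 5′ to 3′. Capitals mark an E2F motif (TTTGGCGC, TTTCCCGC, TTTGCCGC or TTTCGCGC) or a CCAAT box (CCAAT), on either strand.
*CLSPN*, chr1:35769954-35770228, minus strand: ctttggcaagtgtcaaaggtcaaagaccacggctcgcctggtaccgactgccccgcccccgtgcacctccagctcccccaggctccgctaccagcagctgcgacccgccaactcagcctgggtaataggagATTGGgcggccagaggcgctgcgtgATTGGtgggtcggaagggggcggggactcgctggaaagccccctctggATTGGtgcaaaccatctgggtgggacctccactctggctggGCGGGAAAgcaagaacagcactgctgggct
*TIPIN*, second start, chr15:66356661-66356935, minus strand: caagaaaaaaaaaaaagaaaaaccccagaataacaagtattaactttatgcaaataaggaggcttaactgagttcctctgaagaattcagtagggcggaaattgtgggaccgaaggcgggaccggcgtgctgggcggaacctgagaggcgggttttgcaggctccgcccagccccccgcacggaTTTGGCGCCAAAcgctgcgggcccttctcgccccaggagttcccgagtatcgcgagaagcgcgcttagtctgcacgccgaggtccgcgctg
*TIMELESS*, chr12:56449402-56449676, minus strand: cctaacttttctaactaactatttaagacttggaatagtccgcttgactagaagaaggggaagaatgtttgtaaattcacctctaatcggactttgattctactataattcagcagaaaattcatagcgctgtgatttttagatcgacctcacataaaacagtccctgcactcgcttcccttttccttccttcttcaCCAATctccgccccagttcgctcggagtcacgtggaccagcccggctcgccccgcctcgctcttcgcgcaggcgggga
*WDHD1*, chr14:55027075-55027349, minus strand: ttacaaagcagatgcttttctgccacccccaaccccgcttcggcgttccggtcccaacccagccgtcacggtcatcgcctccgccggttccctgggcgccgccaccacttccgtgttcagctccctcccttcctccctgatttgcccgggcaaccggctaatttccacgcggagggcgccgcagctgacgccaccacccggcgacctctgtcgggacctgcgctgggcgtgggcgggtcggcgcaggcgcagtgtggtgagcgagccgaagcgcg
*CHEK1*, first start, chr11:125625979-125626253, plus strand: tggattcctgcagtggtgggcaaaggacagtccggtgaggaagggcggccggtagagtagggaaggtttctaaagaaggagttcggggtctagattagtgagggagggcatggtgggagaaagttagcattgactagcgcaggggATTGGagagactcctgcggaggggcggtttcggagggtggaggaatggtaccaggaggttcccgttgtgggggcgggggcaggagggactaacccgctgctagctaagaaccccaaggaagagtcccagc

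In windows of 300 bases around the start, an E2F motif stood in *CLSPN* and in the second start of *TIPIN*, where matches on opposite strands overlap. It stood in 2 of the 16 promoters and in 3.31% of all 35116 promoters. The first start of *TIPIN*, not shown, held a CCAAT box and no E2F motif. A CCAAT box stood in 12 of the 16, from 8 genes, and in 34.6% of all promoters. The 3 *CHEK1* windows overlap and share a CCAAT box, so the 16 promoters are not independent. The CHR element (TTTGAA) was in 1 promoter, of *RAD17*, and in 15.2% of all promoters. *WDHD1* and *ATR* held none of these letters in the window, and a match is a description of sequence only.

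The first comparison asked which members changed when *miR-150-3p* was put into squamous cells. The 4 fork protection genes and *CHEK1* had ratios of −2.70 to −1.35 in EBC-1, against −0.59 to −0.37 in SK-MES-1, where *TIPIN* and *WDHD1* were within the limits that the scanner software sets, while *ATR*, *RAD9A* and *RAD17* lay between −0.29 and 0.28 in both lines. Values are log2 ratios of treated over control RNA, given with the error that the scanner software attaches to a single array. With 1 array per line, that error covers technical noise only. Fewer dividing cells and less RNA per cell cannot be told apart in such bulk samples.

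*CLSPN* had a log2 ratio of −2.70 ± 0.36 in EBC-1, the lowest of the members, against −0.59 ± 0.22 in SK-MES-1. *TIMELESS* had −2.16 ± 0.29 in EBC-1, against −0.48 ± 0.21 in SK-MES-1. *WDHD1*, whose single probe is spotted 10 times, had −2.10 ± 0.29 and −0.37 ± 0.21. All 3 genes thus lay below −2 in EBC-1 and above −1 in SK-MES-1. *TIPIN* followed at −1.76 ± 0.26 in EBC-1, against −0.38 ± 0.21 in SK-MES-1. *CHEK1*, the effector kinase, had −1.35 ± 0.24 in EBC-1, against −0.52 ± 0.21 in SK-MES-1.

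*ATRIP* had −0.89 ± 0.27 in EBC-1, against −0.10 ± 0.15 in SK-MES-1. Its 2 probes gave −0.90 and −0.87 in EBC-1, the first with a treated signal not well above background, and with normexp background correction the EBC-1 value was −0.12. Its kinase partner *ATR* had −0.29 ± 0.15 in EBC-1, against 0.28 ± 0.15 in SK-MES-1, on opposite sides of 0. *RAD9A*, a clamp subunit, had −0.14 ± 0.21 and −0.18 ± 0.20. *RAD17*, the clamp loader subunit, had −0.20 ± 0.53 in EBC-1, where its control signal was not well above background, and −0.11 ± 0.32 in SK-MES-1. *ETAA1*, the activator that works apart from the clamp, was the only member above 0 in EBC-1, at 0.55 ± 0.23, and had 0.08 ± 0.21 in SK-MES-1.

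**Figure D1:**
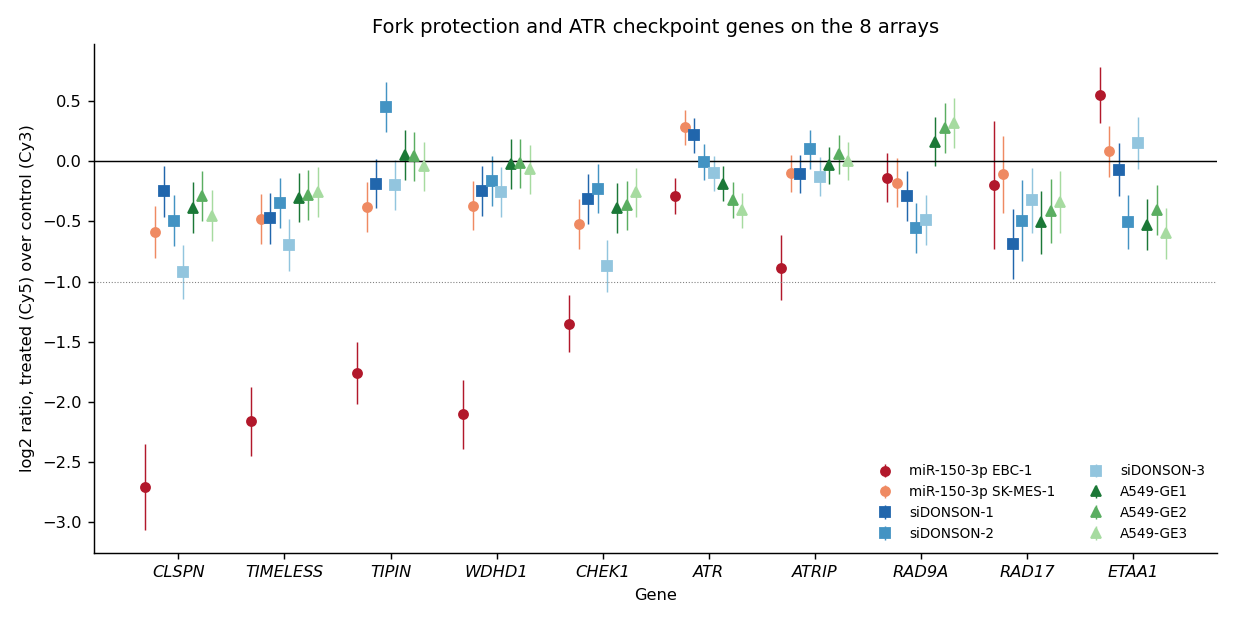
Log2 ratio of treated over control RNA (vertical axis) for the 10 genes (horizontal axis) on the 8 arrays, with bars for the software's error of a single array and a dotted line at −1. The EBC-1 points of *CLSPN*, *TIMELESS*, *TIPIN*, *WDHD1* and *CHEK1* lie below −1, and all points of the other 7 arrays lie above it.

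In EBC-1, 5 of 10 members lay below −1, against 6.04% of all 14759 genes measured there, and in SK-MES-1 none (0 of 10) did. Beyond the 95% limits of the software, 6 members were lower in EBC-1 (19.8% of all genes) and 1, *ETAA1*, was higher (21.3% of all genes). In SK-MES-1, 3 members, *CLSPN*, *TIMELESS* and *CHEK1*, were beyond the lower limit, against 9.08% of all genes. The median of the 10 members was −1.12 in EBC-1, where that of all genes was 0.05, and −0.27 in SK-MES-1, where it was 0.02. Values of dim probes depend on the background correction. With normexp correction and loess, 2 members lay below −1 in EBC-1, and *CLSPN* was at −0.55 there.

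Taken as a group of 2 arrays, *CHEK1* was lower by the test with *miR-150-3p*, at a mean log2 ratio of −0.94 (SE 0.22, limma adjusted p = 0.0494, lower on 2 of 2 arrays). It was the 1 member of 10 called lower, where 2.90% of 14229 genes were called lower and 2.47% higher, and none (0) was called higher (0 also at an unadjusted p under 0.05). *TIMELESS* (mean −1.32, limma adjusted p = 0.0553), *CLSPN* (−1.65, 0.0579), *WDHD1* (−1.24, 0.0649) and *TIPIN* (−1.07, 0.0711) had larger means that missed the threshold. The 2 arrays are different lines, and the gap between them enters the spread of this test. That gap, EBC-1 minus SK-MES-1, was −0.83 for *CHEK1* and −2.12 to −1.38 for these larger means. The order of the p-values therefore does not rank the responses. The means of *ATRIP* (−0.49, limma adjusted p = 0.112), *RAD9A* (−0.16, 0.360), *RAD17* (−0.15, 0.412) and *ETAA1* (0.32, 0.265) missed it as well. *ATR* had a mean of −0.00 (95% interval −0.36 to 0.35), whose sign turned under normexp correction. The call of *CHEK1* was lost without EBC-1 (limma adjusted p = 0.394) and without any 1 array of the other treatments (0.0521 to 0.0986), and with normexp (0.0596), and it held without SK-MES-1 (0.0119).

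**Figure D2:**
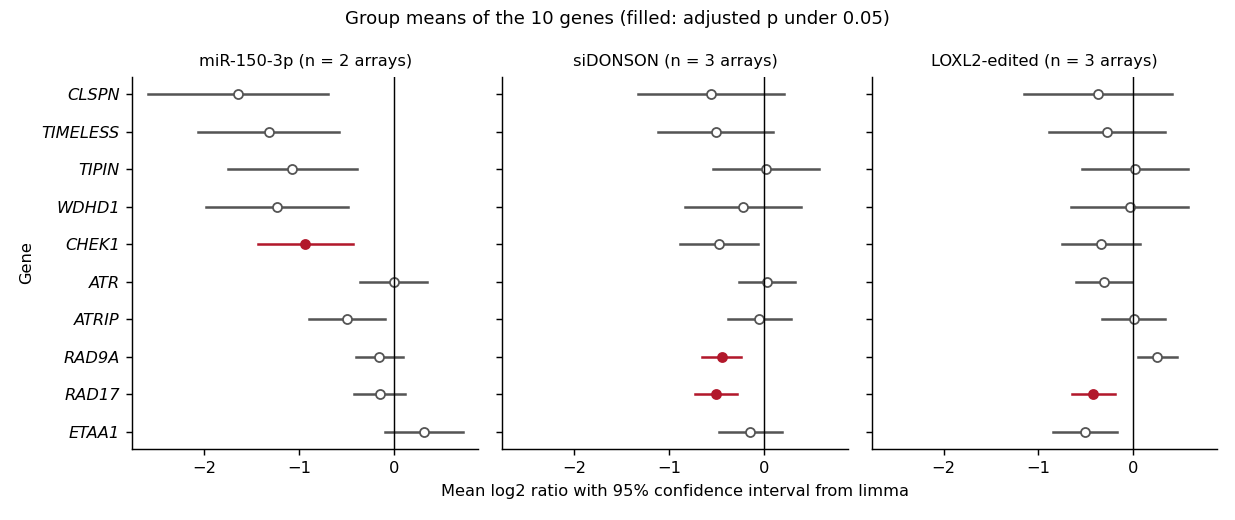
Mean log2 ratio (horizontal axis) of each of the 10 genes in the 3 treatment groups, with the 95% confidence interval from limma, filled red where the adjusted p over all genes is under 0.05. *CHEK1* is filled for *miR-150-3p*, *RAD9A* and *RAD17* for siDONSON, and *RAD17* for *LOXL2* editing.

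The EBC-1 minus SK-MES-1 difference of log2 ratios sets 1 array against 1 array. Its test has no replicate of either line and takes its spread from the siDONSON and *LOXL2*-edited arrays, in other cells, so a call here rests on the assumption that the lone arrays vary like those. Under that assumption 3 of the 10 members were called lower in EBC-1, where 1.55% of 14229 genes were. *CLSPN* differed by −2.12 (95% interval −2.88 to −1.36, limma adjusted p = 0.0361), *WDHD1* by −1.73 (−2.13 to −1.34, 0.0152) and *TIMELESS* by −1.68 (−2.19 to −1.18, 0.0297). *TIPIN*, the partner of TIMELESS, differed by −1.38 (−2.18 to −0.58) with an adjusted p from limma of 0.105. For *ATRIP* the difference was −0.78 (limma adjusted p = 0.104), for *CHEK1* −0.83 (0.258) and for *ATR* −0.57 (0.257), none past the threshold. *RAD9A* (0.04, 95% interval −0.44 to 0.53), *RAD17* (−0.09, −0.62 to 0.45) and *ETAA1* (0.47, −0.29 to 1.23) had intervals that include 0, and the sign of *RAD9A* turned with median centring. The calls depended on that spread. With it taken from the siDONSON arrays alone, no member was called (0 of 10, limma adjusted p = 0.292 for all 3), and the 3 calls were also lost without A549-GE1 (0.0721 to 0.0983), A549-GE2 (0.0897 to 0.104) or A549-GE3 (0.0754 to 0.0983). With normexp correction the *CLSPN* difference was −0.26 (limma adjusted p = 0.473), while *WDHD1* (−0.61, 0.0162) and *TIMELESS* (−1.40, 0.00979) were still called.

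**Figure D3:**
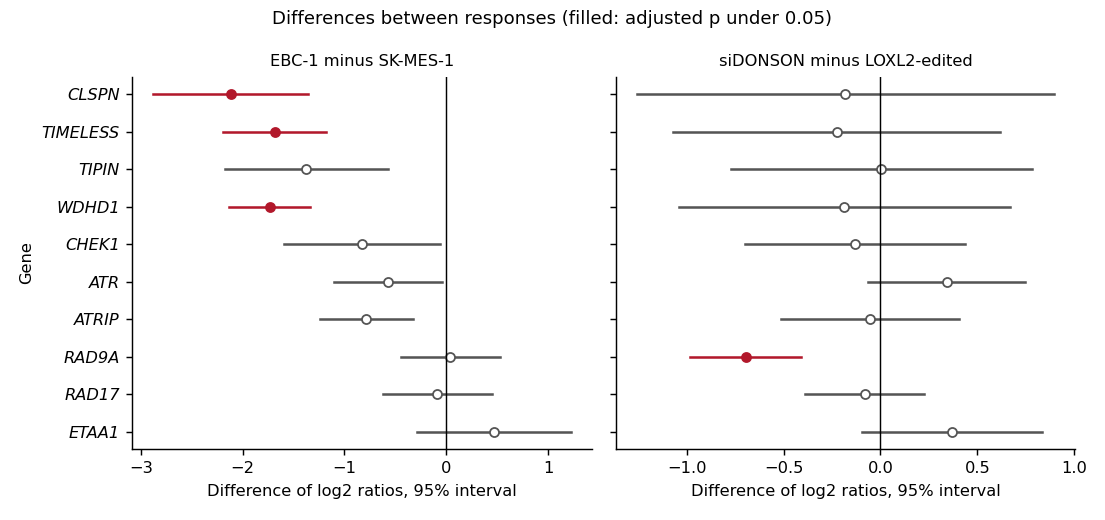
Differences of log2 ratios (horizontal axis) between EBC-1 and SK-MES-1 and between the siDONSON and *LOXL2*-edited groups for the 10 genes, with 95% intervals from limma, filled red where the adjusted p is under 0.05. *CLSPN*, *TIMELESS* and *WDHD1* are filled on the left and *RAD9A* on the right.

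Other genes of the pathway and of proliferation had low ratios in EBC-1 too. Of 30 other ATR and fork genes chosen by role, 25 were beyond the lower software limit in EBC-1, with a median of −0.997, against −0.18 in SK-MES-1. Among the lowest in EBC-1 were *PCNA*, the sliding clamp (−2.54), and *RFC3*, a clamp loader subunit (−2.02). The highest were *TP53BP1* (0.54), *SMARCAL1* (0.03) and *HUS1* (0.02), of which HUS1 sits in the same clamp as RAD9A. In SK-MES-1 the lowest were the fork remodeler *ZRANB3* (−0.74), *RHNO1* (−0.43) and *RFC5* (−0.43), and the highest *HUS1* (0.41), *TP53BP1* (0.25) and *RPA1* (0.15). By the test over both arrays, 2 of 30 were called lower, *RHNO1* and *ZRANB3*, and none (0) higher by limma (1 at an unadjusted p under 0.05). All 8 proliferation genes (*MKI67*, *TOP2A*, *CCNB1*, *TYMS*, *RRM2*, *E2F1*, *CCNA2* and *CDK1*) lay below −1 in EBC-1, with a median of −1.98, and their median in SK-MES-1 was −0.18. The part of this shift in the members' values was not tested.

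**Figure D4:**
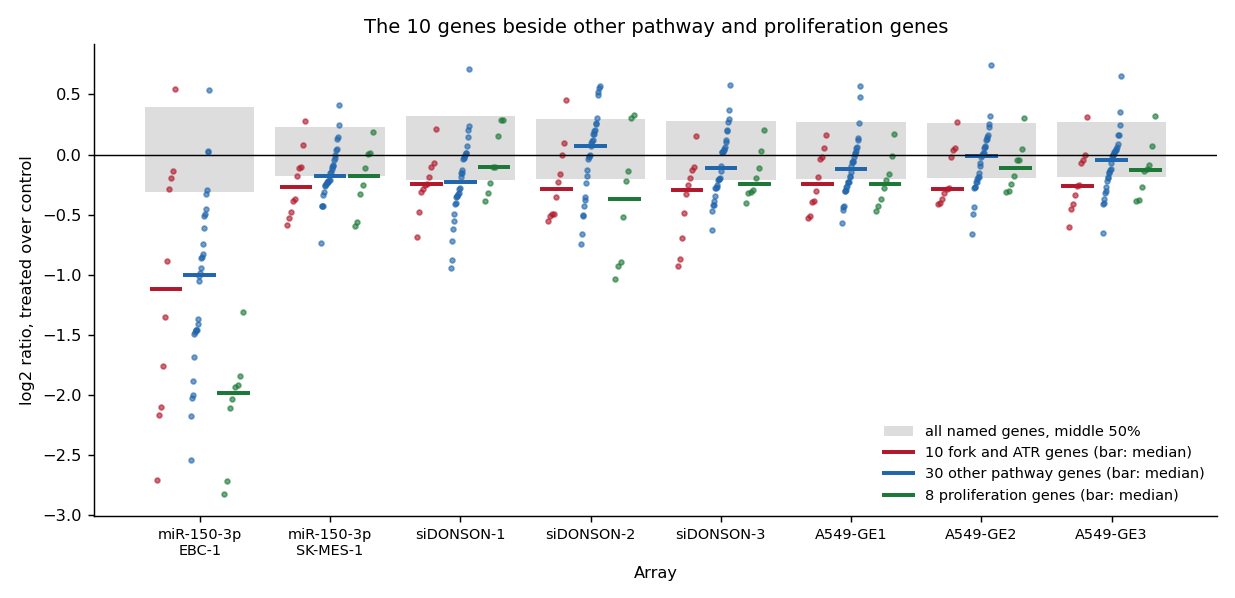
Log2 ratio (vertical axis) of the 10 members, the 30 other pathway genes and the 8 proliferation genes on each of the 8 arrays, with a bar at each median and a grey band over the middle 50% of all named genes. The 3 medians in EBC-1 are −1.12, −0.997 and −1.98, and the medians on the other arrays lie between −0.37 and 0.07.

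The second comparison asked which members changed with siRNAs against *DONSON* in SBC-3. The clamp loader subunit *RAD17* and the clamp subunit *RAD9A* were lower on all 3 arrays and passed the test, while *CLSPN*, *TIMELESS* and *CHEK1* were below 0 on all 3 without passing. *RAD17* had log2 ratios of −0.69, −0.49 and −0.33 with siDONSON-1, siDONSON-2 and siDONSON-3, and a mean of −0.50 (SE 0.10, n = 3, limma adjusted p = 0.0262). *RAD9A* had −0.29, −0.56 and −0.49, and a mean of −0.44 (SE 0.09, n = 3, limma adjusted p = 0.0290). For *RAD17*, read from a dim probe, only siDONSON-1 was beyond the software limits, and for *RAD9A* siDONSON-2 and siDONSON-3 were. No array crossed 0 for either gene. These were 2 of 10 members called lower, where 3.21% of 14453 genes were called lower and 4.01% higher, and none (0) was called higher (0 also at an unadjusted p under 0.05).

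*CLSPN* had −0.25, −0.49 and −0.92, a mean of −0.56 (SE 0.33, limma adjusted p = 0.333). *CHEK1* had −0.31, −0.23 and −0.87, a mean of −0.47 (SE 0.18, limma adjusted p = 0.143). *TIMELESS* had −0.48, −0.35 and −0.69, a mean of −0.51 (SE 0.26, limma adjusted p = 0.265). In all 3 genes siDONSON-3 gave the lowest value. *TIPIN*, whose protein binds TIMELESS, had −0.19, 0.45 and −0.20, so that siDONSON-2 stood apart on the other side of 0. *ETAA1* had −0.07, −0.51 and 0.15, and the 3 siRNAs disagreed in sign. *WDHD1* was below 0 on each array, at −0.25, −0.16 and −0.26, within the software limits, while *ATR* (0.22, −0.01, −0.10) and *ATRIP* (−0.11, 0.10, −0.13) lay on either side of 0. The mean signs of *TIPIN* (0.02) and *ATR* (0.04) turned with median centring.

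In all, 6 of 10 members lay below 0 on every siDONSON array, against 18.6% of all genes tested. Among the 30 other pathway genes the median of the means was −0.12, and of 29 tested 1, *MRE11*, a nuclease of the break-sensing complex, was called lower (mean −0.54, limma adjusted p = 0.0290) and none (0) higher (0 at an unadjusted p under 0.05). The call of *RAD17* was lost without siDONSON-1 (limma adjusted p = 0.0803), siDONSON-2 (0.0502), siDONSON-3 (0.0632) or any A549 array (0.0587 to 0.0647), and with normexp correction its mean was −0.10 (0.106). That of *RAD9A* was lost without siDONSON-2 (limma adjusted p = 0.0619), siDONSON-3 (0.105) or any A549 array (0.0641 to 0.0727). With the EBC-1 or the SK-MES-1 array left out, the spread between these lines leaves the shared error. *TIMELESS* and *CLSPN* were then called lower with siDONSON as well. The number of all genes called also moved when an array was left out. This rise is therefore not a result about the members.

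The third comparison asked which members differed in A549 cells with *LOXL2* edited. *RAD17* was lower in all 3 edited lines and was the 1 member that passed the test. Its log2 ratios were −0.51, −0.41 and −0.34 in A549-GE1, A549-GE2 and A549-GE3, and its mean −0.42 (SE 0.10, n = 3, limma adjusted p = 0.0278). The *RAD17* probe is dim, and none of the edited lines was beyond the software limits for it. *ETAA1* had ratios of −0.53, −0.40 and −0.60, with a mean of −0.51 (SE 0.14, n = 3, limma adjusted p = 0.0537). *RAD9A* was above 0 in each line, at 0.16, 0.27 and 0.32, with a mean of 0.25 (SE 0.09, n = 3, limma adjusted p = 0.0994). The 3 edited lines lay close together for each of these genes. By direction, 1 of 10 members was called lower, where 6.77% of 15531 genes were, and none (0) was called higher, where 7.58% were (1, *RAD9A*, at an unadjusted p under 0.05).

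Among the kinases, *ATR* had −0.19, −0.32 and −0.41, a mean of −0.31 (SE 0.13, limma adjusted p = 0.148), and *CHEK1* had −0.39, −0.37 and −0.26, a mean of −0.34 (SE 0.18, limma adjusted p = 0.237). *ATRIP* lay on 0, at −0.03, 0.06 and −0.00, and its difference from *ATR* was not tested. *CLSPN* had −0.38, −0.29 and −0.45 (mean −0.37, limma adjusted p = 0.497), and *TIMELESS* had −0.30, −0.28 and −0.26 (mean −0.28, limma adjusted p = 0.521). Both p-values rest on the shared spread, which includes the gap between EBC-1 and SK-MES-1, so they do not measure the edited lines alone. *TIPIN* (0.05, 0.04, −0.04) and *WDHD1* (−0.02, −0.02, −0.07) were within 0.07 of 0 in every edited line. The mean signs of *TIPIN* and *ATRIP* turned with median centring, and those of *TIPIN* and *WDHD1* with normexp correction.

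In the edited lines 7 of 10 members lay below 0 on every array, against 33.4% of all genes tested. The 30 other pathway genes had a median of −0.07, and *MRE11* was again the 1 called lower (mean −0.63, limma adjusted p = 0.0109), with none (0) higher (0 at an unadjusted p under 0.05). Epithelial markers moved in the same lines, with means of −2.43 for *EPCAM*, −0.75 for *KRT18*, −0.53 for *KRT8* and 1.36 for *CDH1*, all 4 of the list past the test, and their part in the members' values was not tested. The call of *RAD17* was lost without A549-GE1 (limma adjusted p = 0.169), A549-GE2 (0.149) or A549-GE3 (0.109), and with normexp correction its mean was −0.07 (0.165). With the spread estimated from the A549 arrays alone, 5873 of 15531 genes were called, and 7 of 10 members. All 7 had the signs given above. Of them *RAD9A* (limma adjusted p = 0.0336) was higher, and *RAD17*, *ETAA1*, *ATR*, *CHEK1*, *CLSPN* and *TIMELESS* were lower.

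The siDONSON and *LOXL2*-edited responses were set against each other in a test of the difference. *RAD9A* was the 1 member of 10 called, lower with siDONSON, with a difference of −0.69 (95% interval −0.98 to −0.41, limma adjusted p = 0.0200), where 3.51% of 13655 genes were called lower. Its ratios ran from −0.56 to −0.29 with siDONSON and from 0.16 to 0.32 in the edited lines. *RAD17*, called in both groups, differed by −0.08 (95% interval −0.39 to 0.23). For *ATR* the difference was 0.34 (−0.06 to 0.75) and for *ETAA1* 0.37 (−0.09 to 0.83). The interval was widest for *CLSPN* (−1.26 to 0.90), with *WDHD1* (−1.04 to 0.67) and *TIMELESS* (−1.07 to 0.62) next. The shared spread of this test includes the gap between the EBC-1 and SK-MES-1 arrays. That gap was −2.12 for *CLSPN*, −1.73 for *WDHD1* and −1.68 for *TIMELESS*. The widths for these genes are thus not a measure of the siDONSON and A549 arrays alone. The *RAD9A* call was lost without siDONSON-3 (limma adjusted p = 0.0544), A549-GE1 (0.0694), A549-GE2 (0.0957) or A549-GE3 (0.0932).

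Across all arrays, 5 of 10 members (*CLSPN*, *TIMELESS*, *WDHD1*, *CHEK1* and *RAD17*) were below 0 on all 8 arrays, against 4.85% of 12862 genes with a value on each. Treated RNA was in Cy5 on every array, so a dye effect of a probe and a treatment effect cannot be told apart from the sign alone. When the mean of the 6 siDONSON and A549 arrays was subtracted from the *miR-150-3p* arrays, *CLSPN* stood at −2.24 and *TIMELESS* at −1.77 in EBC-1, and at −0.12 and −0.08 in SK-MES-1. After the same subtraction *CHEK1* stood at −0.95 in EBC-1, against −0.12 for SK-MES-1. *WDHD1* stayed below 0 in both lines. *RAD17* changed sign, rising to 0.35 for SK-MES-1 and 0.26 for EBC-1. The subtracted mean carries the siDONSON and *LOXL2*-edited responses, in which *RAD17* was itself lower (means −0.50 and −0.42). The subtraction therefore cannot separate a dye effect from a treatment effect.

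Control levels of the members are log2 Cy3 signals relative to the 75th percentile of each array, compared only within a gene, since probes differ in brightness. The SD over the 3 control channels of a line was at most 0.28, for *RAD17* in SBC-3, and EBC-1 and SK-MES-1 had 1 control channel each, so no test of lines was made. *TIPIN* varied most, from 5.04 in A549 through 4.62 in EBC-1 and then 3.48 in SK-MES-1 to 2.86 in SBC-3, a range of 4.54-fold. Its partner *TIMELESS* ran from 6.54 in SBC-3 through 6.27 in A549 and 5.90 in SK-MES-1 to 5.44 in EBC-1, with no neighbours further apart than 2 times the largest SD (0.557). With normexp-corrected signals A549 (4.82) was above SBC-3 (4.77) for *TIMELESS*, and 7 of 10 members kept their highest line.

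*CLSPN* (0.99, 0.87, 0.52 and 0.32) and *WDHD1* (2.82, 2.79, 2.36 and 1.47) are given for SBC-3, A549, SK-MES-1 and EBC-1 in turn, and SBC-3 and A549 were within that limit for both. For *WDHD1*, A549 (1.77) was above SBC-3 (1.54) with normexp. *CHEK1* was highest in SBC-3 (2.82), then EBC-1 (2.44), A549 (1.94) and SK-MES-1 (1.33). Of *CLSPN*, *TIMELESS* and *WDHD1*, control EBC-1 was below control SK-MES-1 by more than 2 times the largest SD for *WDHD1* alone. *ATR* was highest in A549 (2.26), with EBC-1 (1.66), SBC-3 (1.36) and SK-MES-1 (1.30) below. *ATRIP* had −0.38 in SK-MES-1, −0.40 in SBC-3, −0.86 in A549 and −1.16 in EBC-1. No neighbours differed beyond the limit for *ATRIP*, and its 2 probes disagreed on the lowest line.

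*ETAA1* was highest in A549 (1.24) and lowest in EBC-1 (−0.42), with SK-MES-1 (0.46) and SBC-3 (0.10) between them. *RAD17* was dim, at −1.38 in SBC-3, −1.59 in A549 and −2.39 in SK-MES-1, and not well above background in control EBC-1. *RAD9A* ran from 2.45 in SK-MES-1 to 2.22 in A549, a range of 0.23. Of 30 pairs of neighbours in these orders, 7 were further apart than 2 times the largest SD, namely A549 over SK-MES-1 for *CHEK1*, *RAD17* and *ETAA1*, A549 over EBC-1 for *ATR*, SK-MES-1 over EBC-1 for *WDHD1*, and EBC-1 over SK-MES-1 and SK-MES-1 over SBC-3 for *TIPIN*. The other 23 pairs did not differ beyond it. The limit is set by the dim *RAD17* probe, and the SDs of the other genes were smaller, at 0.025 in SBC-3 and 0.027 in A549 for *TIMELESS*. A pair within the limit is therefore not shown to be alike. In 6 of 10 members the lines spanned more than 1 log2 unit, and in 3 with normexp-corrected signals.

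**Figure D5:**
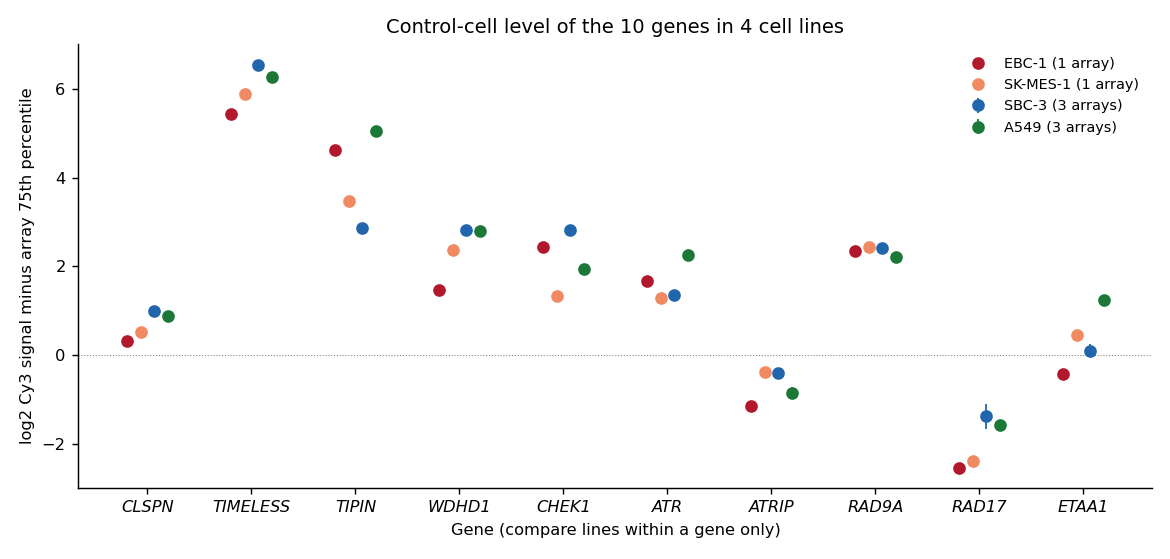
Control-cell level (vertical axis, log2 Cy3 signal minus the 75th percentile of its array) of the 10 genes in 4 cell lines, with bars for the SD over the 3 arrays of SBC-3 and A549. *TIPIN* spans 2.86 to 5.04 and *RAD9A* 2.22 to 2.45, and levels are comparable between lines within a gene only.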

How the data were processed

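The authors deposited scanner output of Agilent Feature Extraction 12.1.1.1 for 8 two-color arrays. Per the file headers, the deposited processed intensities of both channels were background-subtracted and dye-normalized. The deposited log10 ratios of red over green (a table of the series, largest difference 0) and their errors come from the same software. Log2 ratios of red over green intensity were computed per spot, spots of a probe and then probes of a gene were averaged, and control and outlier-flagged spots were left out. A probe counted on an array if well above background in either channel. Accessions named 22439 genes through RefSeq (24782 of 50096 identifiers matched).

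Groups were tested with limma 3.58.1 in R 4.3.3, 2-sided, over genes with a value on every array of a group, with Benjamini-Hochberg adjustment and a threshold of 0.05. All 8 arrays shared 1 estimate of the spread. The script was tested on simulated data. Members, lists and tests were chosen with earlier results of these data known. All members, the targeted genes, pathway genes that passed the test, the 3 lowest and 3 highest pathway genes in EBC-1 and SK-MES-1, and the proliferation genes were named. Pathway genes called for miR-150-3p were named after their values were seen. The number of arrays limits the precision. Alternatives included normexp (offset 50) with loess, other filters and centring, and leaving out each array. Normexp used median signals, since mean signals were not analysed here.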

Additional observations from a re-analysis of the deposited data

Results flagged for a closer look

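The EBC-1 minus SK-MES-1 difference of the *miR-150-3p* log2 ratio passed the threshold for 3 genes, in a test that sets 1 array against 1 array and takes its spread from the arrays of other treatments. *CLSPN* had a log2 ratio of −2.70 in EBC-1, against −0.59 in SK-MES-1, a difference of −2.12 (limma adjusted p = 0.0361). With normexp correction its difference was −0.26 (limma adjusted p = 0.473). *TIMELESS* had −2.16 and −0.48, a difference of −1.68 (limma adjusted p = 0.0297), and −1.40 (0.00979) with normexp. *WDHD1* had −2.10 and −0.37, a difference of −1.73 (limma adjusted p = 0.0152), and −0.61 (0.0162) with normexp. All 3 calls were lost with the spread of the siDONSON arrays alone (limma adjusted p = 0.292 for each) and without any 1 of the A549 arrays (0.0721 to 0.104), and those of *CLSPN* (0.0624) and *TIMELESS* (0.0501) with no filter on dim probes. Without replicates of either line, a difference between the lines is not established by this test.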

How the results depend on the processing

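The counts of calls depended on the spread and the filter. For *miR-150-3p*, 765 genes were called. This became 1535 with normexp and loess, 198 with no filter on dim probes, 369 with the spread over all genes with a value (chosen after seeing the data) and 0 with the spread of its own arrays (1944 genes at an unadjusted p under 0.05), and leaving out 1 array gave 1 to 2972. For siDONSON, 1043 became 2897 without the filter, 26 with its own spread, and 97 to 1409 leaving out 1 array. For *LOXL2* editing, 2229 became 5375 without the filter, 5873 with its own spread, and 470 to 2889 leaving out 1 array.

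Of the members, 1 was called for *miR-150-3p*. This became 3 with normexp, 0 without the filter, 4 with both channels above background, 3 with probes counted on all 8 arrays or genes with a value on all 8 (chosen after seeing the data), 0 with the spread over all genes, 0 with its own spread, and 0 to 6 leaving out 1 array. For siDONSON, 2 became 1 with normexp, 0 with its own spread and 0 to 4 leaving out 1 array. For *LOXL2* editing, 1 became 2 with normexp, median centring, no filter, both channels above background, probes counted on all 8 arrays or genes with a value on all 8, 7 with its own spread, and 0 to 2 leaving out 1 array. For EBC-1 minus SK-MES-1, 3 became 1 without the filter, 0 with the spread of the siDONSON arrays, 6 with that of the A549 arrays and 0 to 5 leaving out 1 array. For siDONSON minus *LOXL2*-edited, 1 became 0 with the replicate block (*RAD9A*, limma adjusted p = 0.0708) and 0 to 1 leaving out 1 array. The siRNA and line numbers do not pair the samples (correlations of deviations −0.020, −0.014 and −0.0082). Members below −1 in EBC-1 went from 5 to 2, and members with a level range over 1 from 6 to 3, with normexp. Where a group was left with 1 array, it was assumed to vary like the others. Counts over all genes are given above for some of these settings only, and not for the differences between responses. The changes in the counts of members are therefore not a result about the members.

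Signs turned only in means that did not pass the test. With normexp these were *ATR* for *miR-150-3p* (0.040), *TIPIN* (−0.0044) and *WDHD1* (0.0079) for *LOXL2* editing. With median centring these were *TIPIN* (−0.023) and *ATR* (−0.0084) for siDONSON, *TIPIN* (−0.026) and *ATRIP* (−0.035) for *LOXL2* editing, and *RAD9A* for EBC-1 minus SK-MES-1 (−0.0048). With the brightest probe these were *ATR* for *miR-150-3p* (0.034) and *ATRIP* for *LOXL2* editing (−0.024). Leaving out 1 array gave ranges on both sides of 0 for *ATR* with *miR-150-3p* (−0.29 to 0.28) and for *TIPIN* (−0.19 to 0.13), *ATR* (−0.054 to 0.10) and *ETAA1* (−0.29 to 0.042) with siDONSON. The same held for *TIPIN* (−0.0012 to 0.046) and *ATRIP* (−0.017 to 0.028) with *LOXL2* editing, and for *TIPIN* (−0.21 to 0.12), *CLSPN* (−0.33 to 0.0029), *CHEK1* (−0.25 to 0.069) and *RAD17* (−0.17 to 0.011) in siDONSON minus *LOXL2*-edited. The cause was not tested.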
